A study of Mus musculus with 2 samples.

Results

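The let-7 family of the mouse limb is described here from the 10 miRNA genes whose symbol begins with Mirlet7 or is Mir98, out of 1973 miRNA genes counted. They are Mirlet7a-1, Mirlet7a-2, Mirlet7b, Mirlet7c-1, Mirlet7c-2, Mirlet7d, Mirlet7f-2, Mirlet7g, Mirlet7i and Mir98. The rule uses the gene name. Small RNA was sequenced from limb tissue of healthy B6NCrl mouse embryos at embryonic day 15.5. The series has 1 group with 2 biological replicates, a pool of 78 embryos in replicate 1 and of 62 embryos in replicate 2, each with both sexes, so that variation between single embryos cannot be seen. No genotype, treatment or second stage was part of it, so levels are described and the 2 pools are set against each other.

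MicroRNAs are cut from hairpin precursors. One arm of the hairpin, named 5p or 3p after its position, is loaded onto Argonaute, and bases 2 to 8 of that arm, the seed, pair with messenger RNAs. The let-7 miRNAs, found first in Caenorhabditis elegans as a switch of developmental timing, accumulate as embryonic cells differentiate and repress growth genes such as Hmga2, Lin28 and Ras family members. LIN28 proteins in turn block the maturation of let-7 precursors. In mouse growth plate cartilage, let-7 and miR-140 act together in chondrocyte proliferation and differentiation.

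The mature 5p arms are shown first, since the seed defines the family and the bases after it decide which gene a read can be assigned to. The 10 genes encode 8 different 5p arms of 22 bases, printed 5′ to 3′ from RefSeq (GRCm38.p6) with the seed in capitals.
let-7a-5p: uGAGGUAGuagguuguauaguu
let-7b-5p: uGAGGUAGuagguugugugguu
let-7c-5p: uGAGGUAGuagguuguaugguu
let-7d-5p: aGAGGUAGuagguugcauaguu
let-7f-5p: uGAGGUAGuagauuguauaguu
let-7g-5p: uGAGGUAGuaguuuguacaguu
let-7i-5p: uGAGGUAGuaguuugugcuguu
miR-98-5p: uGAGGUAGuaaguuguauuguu
All 8 share the seed, and the 7 others differ from let-7a-5p at 1 to 4 bases outside it. Counted from 1 at the 5′ end, let-7c-5p carries A19G, let-7f-5p G12A, let-7b-5p A17G and A19G, and let-7d-5p U1A and U16C. In let-7g-5p the changes are G12U and U18C, in miR-98-5p G11A and A19U, and in let-7i-5p G12U, A17G, U18C and A19U. For Mirlet7a-2 the let-7a-5p sequence was located at bases 17 to 38 of its hairpin. Beside these genes and the let-7 loci Mirlet7e and Mirlet7f-1, the 13 RefSeq mature entries with this seed include 2 from other genes. Those are let-7k of Mir7k and miR-1961 of Mir1961, and each had 0 sense counts in both replicates.

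The 3p arms, the opposite strands of the same hairpins, vary more. The 10 genes carry 7 different 3p seeds, and 4 of them (Mir98, Mirlet7a-1, Mirlet7b and Mirlet7c-2) have the 3p seed UAUACAA. The 3p arms of the genes with a copied 5p arm are printed with their seeds in capitals, because only there could such a gene still have a mature arm of its own.
let-7a-1-3p: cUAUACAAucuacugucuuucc
let-7c-2-3p: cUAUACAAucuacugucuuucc
let-7a-2-3p: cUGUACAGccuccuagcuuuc
let-7c-1-3p: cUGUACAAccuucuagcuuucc
let-7f-2-3p: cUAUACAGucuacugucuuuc
The first pair are identical, so Mirlet7a-1 and Mirlet7c-2 have no mature arm that is theirs alone. Mirlet7a-2, Mirlet7c-1 and Mirlet7f-2 have 1 such arm each, the 3p arm. Mirlet7b, Mirlet7d, Mirlet7g, Mirlet7i and Mir98 have 2.

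The libraries held 4263630 sense counts over miRNA genes in replicate 1 and 5151214 in replicate 2, out of 9187400 and 10851823 reads. Reads with several alignments, 29.4% of replicate 1 and 29.7% of replicate 2, were totalled on a line of their own. They were taken to have entered no gene and are called excluded below, although the counting rule is not given in the sources. Levels are in CPM, the sense counts of a gene scaled to 1000000 sense counts per library. The limb label was set beside a list of 13 miRNA genes of muscle, cartilage, epidermis, mesenchyme and the Hox clusters. The list was chosen with earlier results known, so its levels are a description and no test of the tissue. Each of the 13 genes had at least 10 counts in both replicates. Together they held 20.9% of the sense counts in replicate 1 and 22.4% in replicate 2. Of 11 listed miRNA genes of neurons, liver, red cells and leukocytes, 9 were measured, without the neuron gene Mir9-1 and the leukocyte gene Mir142. The measured genes held 0.0910% in replicate 1 and 0.0938% in replicate 2. The highest of them were Mir223 of leukocytes (433 CPM on average) and Mir451a of red cells (332 CPM). The neuron gene Mir9-3 had 9 counts in replicate 1 and 7 in replicate 2, and Mir9-2 had 0 in both. Whether the Mir9 genes share an arm was not compared. The 3 Mir124a genes of neurons had 0 counts, but they share a mature arm. So do the muscle genes Mir133a-1, with 0 counts in both replicates, and Mir133a-2, with 0 in replicate 1 and 1 in replicate 2, although the muscle gene Mir206 had 7919 CPM on average. The muscle gene Mir1a-1, outside the list, had 1 count in each replicate. Low counts or counts of 0 at such copied genes and at the Mir9 genes were therefore not used to judge which tissues were present. The share of the other tissues includes the Mir9 and Mir124a genes and has the same limit. The part of the excluded reads in these counts was not tested. In such bulk tissue, fewer cells of a type and less RNA per cell cannot be told apart.

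Of the sense counts assigned to miRNA genes, the let-7 family held 13.7%, and 2 genes made up most of that share. In replicate 1 its genes summed to 602042 sense counts, 14.1% of that library with a Wilson 95% interval of 14.09% to 14.15%. In replicate 2 they summed to 680110 sense counts, 13.2%, with an interval of 13.17% to 13.23%. The mean share was 13.7% ± 0.649 (SD, n = 2). Mirlet7i and Mirlet7g together were 77.9% of the family's counts in replicate 1 and 78.8% in replicate 2. The 5 genes with a copied 5p arm were 2.82% in replicate 1 and 2.84% in replicate 2. By comparison, the Mir99, Mir100 and Mir125 genes that neighbour several let-7 genes held 8.58% ± 0.340 of the sense counts over 6 genes, and the Mir30 family, another family that shares a seed across several loci, 2.49% ± 0.0580 over 6 genes (SD, n = 2). The order of the 3 shares was the same in both replicates, with no test between them. All these shares are of assigned counts only, and the let-7 share lacks Mirlet7e and Mirlet7f-1, which had no row of their own. The reads with several alignments, taken to have entered no gene, were 4.48 times the family's counts in replicate 1 and 4.74 times in replicate 2. Their part in the shares was not tested.

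**Figure D1:**
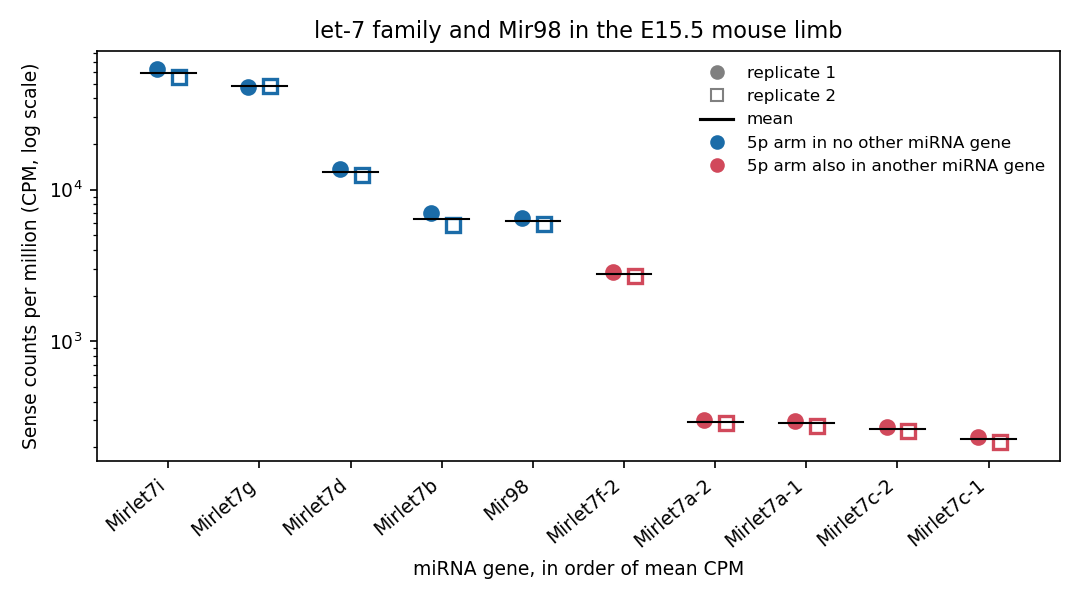
Sense CPM (log scale) of each let-7 gene and Mir98 in replicate 1 (filled circles) and replicate 2 (open squares), with the mean as a line. Blue genes have a 5p arm found in no other miRNA gene and lie at 5862 CPM or above, and red genes have a copied 5p arm and lie at 2869 CPM or below.

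Mirlet7i, at 62102 CPM in replicate 1 and 55733 CPM in replicate 2, was the highest member and stood at rank 2 of all miRNA genes in both libraries, with Mir203 and Mir335 next to it by mean level. Mirlet7g followed with 47870 CPM in replicate 1 and 48328 CPM in replicate 2, at rank 6 in both, with Mir99a and Mir140 next to it by mean level. The values of these 2 genes did not overlap. Mirlet7d had 13736 CPM in replicate 1 and 12463 CPM in replicate 2, close to Mir17 (13424 ± 1088 CPM) and Mir100 (12651 ± 706 CPM, SD, n = 2), its neighbours in the order of mean levels.

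Mirlet7b and Mir98 could not be ordered. Mirlet7b had 6988 CPM in replicate 1 and 5862 CPM in replicate 2, and Mir98 had 6532 CPM in replicate 1 and 5895 CPM in replicate 2. Their order turned between the replicates. Mirlet7f-2 had 2869 CPM in replicate 1 and 2712 CPM in replicate 2, below Mir98 in both.

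The last 4 genes lay within a narrow band far below. Mirlet7a-2 had 303 and 287 CPM, Mirlet7a-1 298 and 278 CPM, Mirlet7c-2 271 and 255 CPM, and Mirlet7c-1 235 and 215 CPM in replicates 1 and 2. These values came from 1000 to 1478 counts per gene and library. Of the 9 neighbouring pairs in the family's order, 7 did not overlap between genes and 2 did, Mirlet7b with Mir98 and Mirlet7a-2 with Mirlet7a-1. From Mirlet7i to Mirlet7c-1 the mean levels spanned 262-fold. A miRNA read covers a mature arm and not the whole precursor, and all the 5p arms have 22 bases, so the levels were not divided by length. Per 100 bases of precursor the order of the 10 genes was the same.

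The members with a 5p arm found in no other miRNA gene all had higher levels than those with a copied 5p arm. Within the first set the levels did not follow the number of bases needed to tell the arm apart, since Mirlet7i and Mirlet7g need more than Mirlet7d and Mir98 and were the highest. Among the 2202 miRNA hairpins of the GENCODE M21 annotation, the 5p arm of Mirlet7d was its own from 9 bases on, that of Mir98 from 11, and those of Mirlet7b, Mirlet7g and Mirlet7i from 17. These 5 genes had mean levels of 6214 to 58918 CPM. The other 5 have a 5p arm that 1 further gene also carries over its whole length. Their mean levels were 225 to 2791 CPM, so the lowest level of the first set was 2.23 times the highest of the second. This is a description of 10 genes from 1 tissue, with no test, and the part of the excluded reads in it was not tested. The tables give neither read lengths nor read positions, and copies outside annotated miRNA genes were not looked for.

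Past the mature arm the precursors part, and the bases there are shown in capitals after the 22 bases of the 5p arm, where a longer read could tell the genes apart.
Mirlet7a-1: ugagguaguagguuguauaguuUUAGG
Mirlet7a-2: ugagguaguagguuguauaguuUAGAG
Mirlet7c-1: ugagguaguagguuguaugguuUAGAG
Mirlet7c-2: ugagguaguagguuguaugguuUUGGG
Mirlet7f-1: ugagguaguagauuguauaguuGUGGG
Mirlet7f-2: ugagguaguagauuguauaguuUUAGG
A sequence that starts at the first base of the 5p arm is held by 1 of these genes only from 24 bases on for both let-7a genes and both let-7c genes, and from 23 bases on for both let-7f genes. Mirlet7f-2, at 2791 ± 111 CPM (SD, n = 2), was 9.46 times as high as Mirlet7a-2, the next gene below it, in replicate 1 and 9.45 times in replicate 2. Mirlet7a-1 and Mirlet7c-2, with both arms copied, and Mirlet7a-2 and Mirlet7c-1, with a 3p arm of their own, were in the same band of 225 to 295 CPM.

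**Figure D2:**
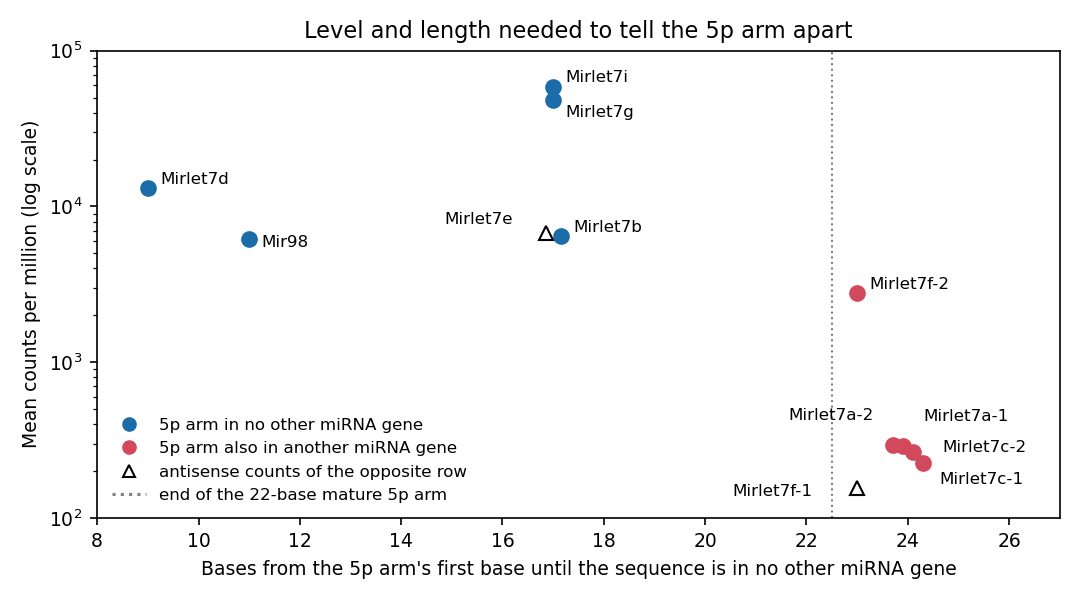
Mean CPM (log scale) of the let-7 genes against the number of bases, from the first base of the 5p arm, at which the sequence is found in no other annotated miRNA gene, with small sideways shifts where points coincide. Triangles are antisense counts of the rows opposite Mirlet7e and Mirlet7f-1, and the dotted line marks the end of the 22-base arm, right of which the highest mean is 2791 CPM.

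Genes with a copied 5p arm were also the lower ones in the cluster partners. Of the 6 neighbouring genes, Mir125b-1 and Mir125b-2 share their 5p arm with each other and had 961 ± 43.9 and 494 ± 2.65 CPM, while Mir99a, Mir99b, Mir100 and Mir125a had 5177 to 49851 CPM (SD, n = 2). In the Mir30 family, Mir30c-1 and Mir30c-2 share a 5p arm and had 46.8 ± 0.831 and 16.4 ± 0.968 CPM. Mir30e, the highest of that family, and Mir30a, both with a 5p arm of their own, had 16416 ± 906 and 4233 ± 92.6 CPM (SD, n = 2). Mir30d had 4120 ± 235 CPM and Mir30b 81.2 ± 0.740 CPM (SD, n = 2), and for these 2 genes the 5p arm was not compared. Mir30b, below every let-7 member, can therefore be placed in neither set. This is a description of few genes with no test, and the part of the excluded reads in it was not tested.

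The members are spread over chromosomes 9, 10, 13, 15, 16 and X (mm10), and neighbours at a locus differed widely in counts. Mirlet7i lies on the minus strand of chromosome 10 (ENSMUSG00000065406.2, 122985640 to 122985724), where D630033A02Rik, a pseudogene annotated as transcribed, has an exon, and Mirlet7g on the plus strand of chromosome 9 (ENSMUSG00000065440.1, 106178840 to 106178927) in an intron of Wdr82, a subunit of histone methyltransferase complexes. Neither has another counted miRNA gene within 10 kb on its strand. In all, 5 members lie in an intron and 5 in an exon of another gene annotated on their strand.

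Mirlet7d (ENSMUSG00000065453.1, chromosome 13, 48536012 to 48536114) and Mirlet7a-1 (ENSMUSG00000065421.2, 48538179 to 48538272) lie on the minus strand in exons of the long noncoding RNA 6720427I07Rik. Mirlet7d had 58564 counts in replicate 1 and 64201 in replicate 2, and Mirlet7a-1 had 1269 and 1431. The ratio of Mirlet7d to Mirlet7a-1 was 46.1 in replicate 1 (exact binomial 95% interval 43.7 to 48.8) and 44.9 in replicate 2 (42.6 to 47.3). Mirlet7c-2 (ENSMUSG00000065608.1, chromosome 15, 85706603 to 85706697) and Mirlet7b (ENSMUSG00000065564.1, 85707319 to 85707403) lie on the plus strand in exons of the noncoding Lncppara. Mirlet7b had 25.8 times the counts of Mirlet7c-2 in replicate 1 (24.3 to 27.4) and 23.0 times in replicate 2 (21.8 to 24.3). In both pairs the higher gene is the one whose 5p arm is uncopied.

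Mirlet7f-2 (ENSMUSG00000065602.1, chromosome X, 151912346 to 151912428) and Mir98 (ENSMUSG00000065536.2, 151913214 to 151913321) lie on the plus strand in an intron of Huwe1, a ubiquitin ligase gene. Mir98 had 2.28 times the counts of Mirlet7f-2 in replicate 1 (2.23 to 2.33) and 2.17 times in replicate 2 (2.13 to 2.22), the smallest difference of the 5 neighbour pairs within 10 kb.

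The remaining members neighbour genes of the miR-99 and miR-125 families, an arrangement kept in many animals, in which miR-125 is the relative of the timing miRNA lin-4 of Caenorhabditis elegans. Mirlet7c-1 (ENSMUSG00000065557.2, chromosome 16, 77599657 to 77599750, plus strand) lies in an intron of Mir99ahg, 721 bases downstream of Mir99a by their starts. Mirlet7c-1 had 1000 counts in replicate 1 and 1110 in replicate 2, and Mir99a 211477 and 258087, which is 211 times as many in replicate 1 (199 to 225) and 233 times in replicate 2 (219 to 247). Mirlet7a-2 (ENSMUSG00000092770.1, chromosome 9, 41536716 to 41536811, plus strand) lies in introns of 3110039I08Rik and Gm49317, with Mir100 5291 bases upstream. Mirlet7a-2 had 1293 and 1478 counts, and Mir100 had 51810 and 67736, or 40.1 times as many in replicate 1 (37.9 to 42.4) and 45.8 times in replicate 2 (43.5 to 48.3). Both let-7 genes here have a copied 5p arm and both Mir99-type neighbours do not. Intervals of ratios cover counting error only, and whether neighbours come from 1 transcript was not measured.

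**Figure D3:**
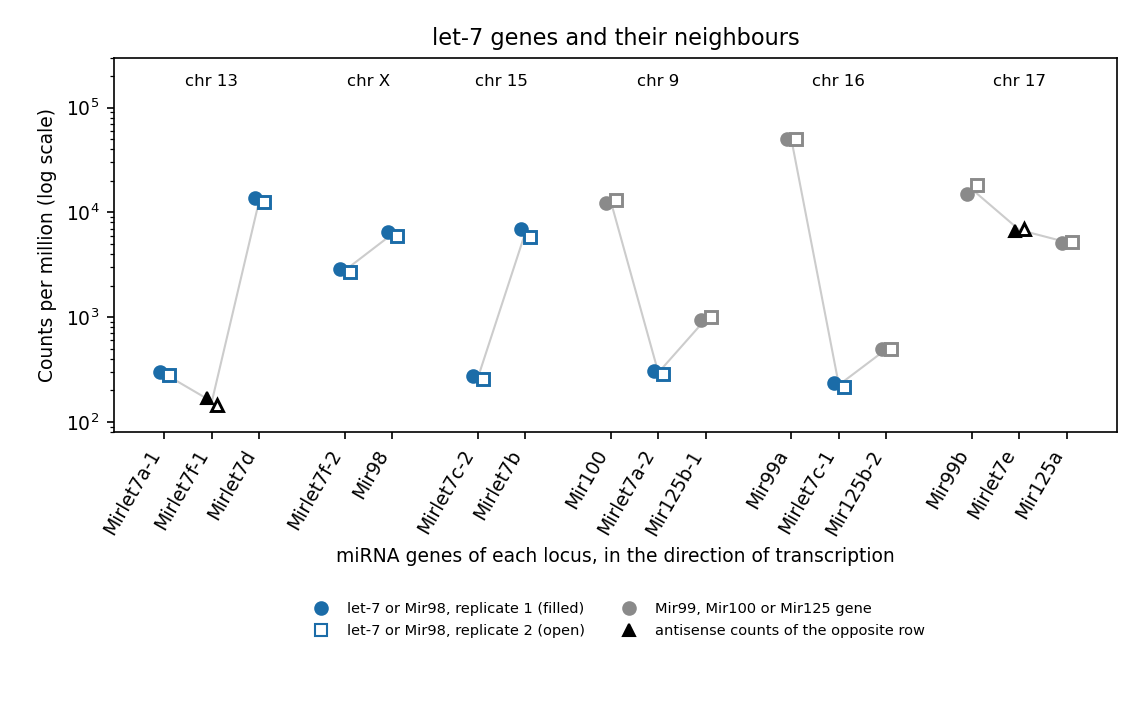
CPM (log scale) of the let-7 genes (blue), their Mir99, Mir100 and Mir125 neighbours (grey) and the antisense counts opposite Mirlet7f-1 and Mirlet7e (triangles), by locus in the direction of transcription, with replicate 1 filled and replicate 2 open. On chromosomes 9 and 16 the let-7 gene lies below both neighbours, and on chromosomes 13 and 15 Mirlet7d and Mirlet7b lie above their let-7 neighbours.

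Between the 2 pools no let-7 gene differed by more than 1.19-fold, and the depth could resolve small differences for the abundant members. Ratios are replicate 1 over replicate 2. Each gene with at least 10 counts in both replicates was tested against counting noise with an exact two-sided binomial test given the library totals, adjusted by Benjamini-Hochberg over all 340 such genes with a threshold of 0.05. Of the 10 members 6 were past it, 5 higher and 1 lower in replicate 1. Of all 340 genes 50.9% were past it, 25.6% higher and 25.3% lower in replicate 1, so the members' count of 6 is near the background. The test compares 2 libraries, not conditions, and a chi-square test of their counts gave 57050 on 339 degrees of freedom, so spread beyond counting noise was common.

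Mirlet7b differed most of the 10, 1.19-fold higher in replicate 1 (log2 ratio 0.25, adjusted p = 3.19e-101, exact binomial test). Of the 340 genes, 43.5% had an absolute log2 ratio at least as large as that of Mirlet7b. Mirlet7i was 1.11-fold higher (log2 ratio 0.16), Mir98 1.11-fold (0.15), Mirlet7d 1.10-fold (0.14) and Mirlet7f-2 1.06-fold (0.08), each past the threshold. Mirlet7g was the exception, with a fold of 0.991 (log2 ratio -0.01, adjusted p = 0.00323, exact binomial test).

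The 4 genes of the low band were not past the threshold. Their log2 ratios were 0.08 for Mirlet7a-2, 0.10 for Mirlet7a-1, 0.09 for Mirlet7c-2 and 0.12 for Mirlet7c-1, with adjusted p = 0.224, 0.132, 0.194 and 0.0982 in the exact binomial test. Mirlet7f-2, whose log2 ratio was also 0.08, had 9.46 to 12.4 times their mean levels and was past the threshold. In the low band a difference of this size was not detected, and whether the depth there could detect it was not tested. Muscle miRNA genes differed more between the pools than the let-7 members. Mir206 had 11050 CPM in replicate 1 and 4787 CPM in replicate 2, 2.31-fold higher in replicate 1, and Mir133b had 84.2 CPM in replicate 1 and 41.9 CPM in replicate 2, 2.01-fold higher, both past the threshold. Mir499 and Mir208b, muscle genes outside the list, had log2 ratios of 1.46 and 1.33, also past it. A higher value in replicate 1 was not particular to muscle. The cartilage genes Mir140 and Mir455 had log2 ratios of 0.05 and 0.21, and the epidermis genes Mir203 and Mir205 had -0.19 and -0.10. Of the 13 genes of the limb list, 4 were higher and 6 lower in replicate 1 past the threshold, beside 25.6% and 25.3% of all 340 genes. The part of the pools' tissue makeup in the let-7 ratios was not tested. The median log2 ratio of the 10 members was 0.11 and that of all 340 genes -0.02, and 9 members and 163 of the 340 genes were above 0.

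**Figure D4:**
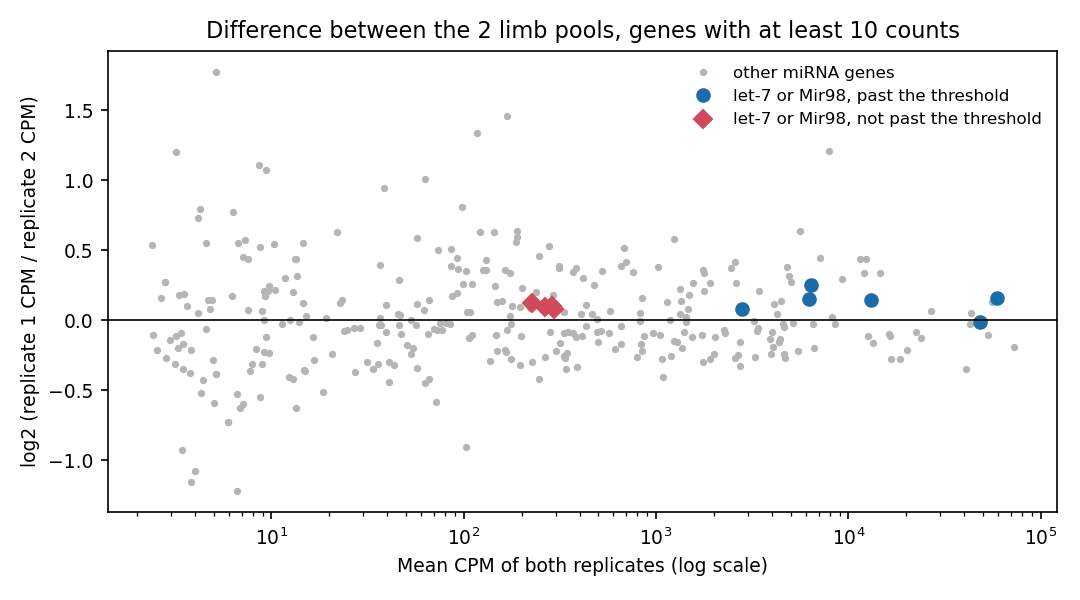
log2 ratio of CPM, replicate 1 over replicate 2, against mean CPM (log scale) for 340 miRNA genes, with the let-7 genes and Mir98 as circles (past the threshold of 0.05) or diamonds (not past it). The members lie between -0.01 and 0.25.

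Of the 6 neighbouring miR-99, miR-100 and miR-125 genes, none was higher and 4 were lower in replicate 1 past the threshold, with a median log2 ratio of -0.06. Mir99b had 15036 CPM in replicate 1 and 18200 CPM in replicate 2. Mirlet7c-1 had a log2 ratio of 0.12, not past the threshold, beside -0.01 for its neighbour Mir99a, and Mirlet7a-2 had 0.08, not past the threshold, beside -0.11 for its neighbour Mir100. In the Mir30 family 2 of 6 genes were higher and 1 lower in replicate 1 past the threshold, with a median of 0.01. Of all 340 genes, 25.6% were higher and 25.3% lower in replicate 1 past the threshold. Among the 247 genes with at least 100 counts, 67.6% were past it in either direction when tested alone. Whether the families differ from each other or from this background was not tested. The miRNAs of the pluripotency list, which in mouse embryonic stem cells oppose let-7, were low. All 10 were measured, and together they had 109 counts in replicate 1 and 130 in replicate 2, led by Mir302a at 9.29 ± 0.788, Mir302d at 7.77 ± 1.37 and Mir302b at 3.49 ± 0.286 CPM (SD, n = 2). Mir367 had 0 counts, which allows up to 0.704 CPM in replicate 1 and 0.582 CPM in replicate 2.

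Most of the hairpins hold, outside the mature arms, the letters GGAG, which LIN28 proteins are known to bind in let-7 precursors. An example with the motif and 1 without it are printed, GGAG in capitals.
Mirlet7g: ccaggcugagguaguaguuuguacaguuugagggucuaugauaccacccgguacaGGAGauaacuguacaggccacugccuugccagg
Mirlet7b: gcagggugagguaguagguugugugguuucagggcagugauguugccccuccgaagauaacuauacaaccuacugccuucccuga
GGAG was searched on the transcribed strand only, since the hairpin is an RNA. It was present in 7 of the 10 hairpins and absent as letters from Mirlet7b, Mirlet7c-2 and Mir98. In each of the 7 it lay between the arms, 3 bases before the annotated 3p arm in Mirlet7g and 4 bases before it in the 6 others. Mirlet7c-1 also held a second copy after the 3p arm. Of the 741 annotated miRNA hairpins of 83 to 108 bases, the length range of the members, 34.3% held GGAG anywhere. Levels of the hairpins with the motif ran from 225 CPM (Mirlet7c-1) to 58918 CPM (Mirlet7i), and those without it had 263 CPM (Mirlet7c-2), 6214 CPM (Mir98) and 6425 CPM (Mirlet7b). The 2 ranges overlap.

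Antisense counts were nearly absent at the members. Mirlet7b had 11 in each replicate, Mir98 had 1 in each, and the other 8 had 0.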

How the data were processed

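MicroRNA-seq of total RNA below 30 nt was deposited as 1 table per replicate. Per the labels and the deposited README, the authors used assembly mm10 with annotation M4; aligner, counter and trimming are not given in the sources used here. The deposited values are raw counts per miRNA gene. The 3 columns have no header: the first is the sum of the others for every gene, and they were taken as both strands, sense and antisense. Symbols came from GENCODE M21 (GRCm38, the assembly of mm10), which matched 1894 of 1973 identifiers and all 10 members, 3 with another version number. Mature arms came from RefSeq, whose hairpins were identical for all 10. Arms were searched in the 2202 M21 miRNA transcripts.

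CPM are sense counts over the sum of all genes' sense counts. The series has 1 group, which leaves edgeR's quasi-likelihood fit nothing to contrast. Replicates were therefore compared with an exact binomial test (scipy 1.17.1, Python 3.11.15). It was tried on simulated data with counting noise only, without the wider spread seen between these libraries. Counts of 0 allow up to 3 counts. Molecular identifiers are not named in the sources, so intervals cover counting error only. Alternatives used edgeR 4.0.16 TMM and DESeq2 1.42.0 size factors in R 4.3.3, other totals, count minimums, strand, adjustment and leaving out a replicate. All 10 members are named; other genes are neighbours within 10 kb, genes of the lists, genes next to the 3 highest members in level, and rows opposite uncounted let-7 genes. Members and lists were chosen with earlier results of these data known.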

Additional observations from a re-analysis of the deposited data

Results flagged for a closer look

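Mirlet7e and Mirlet7f-1, the other let-7 genes of the annotation, had no row of their own among the counted genes. They are therefore missing from the family's order of levels and from its 13.7% share. At both places a row annotated on the opposite strand held antisense counts, in a column the comparisons do not use. Antisense to such a row is the strand of the let-7 gene. Which gene these reads come from was not tested. At Mirlet7e (chromosome 17, 17830352 to 17830444, plus strand), the row Gm25927 had 0 sense counts and 28077 antisense counts in replicate 1 and 36078 in replicate 2. On the CPM scale of the sense counts that is 6585 in replicate 1 and 7004 in replicate 2, close to the levels of Mirlet7b and Mir98. let-7e-5p is found in no other miRNA gene from 17 bases on. The neighbouring Mir99b had 2.28 times these counts in replicate 1 (exact binomial 95% interval 2.25 to 2.32) and 2.60 times in replicate 2 (2.57 to 2.63), and Mir125a 0.780 and 0.745 times. Unlike at the Mirlet7c-1 and Mirlet7a-2 loci, the let-7 position here was not below both neighbours.

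At Mirlet7f-1 (chromosome 13, 48537829 to 48537917, minus strand), between Mirlet7d and Mirlet7a-1, the row Gm24111 had 1 sense count in each replicate and 718 antisense counts in replicate 1 and 742 in replicate 2. Mirlet7f-2, which encodes the same let-7f-5p, had 17.04 times these counts in replicate 1 (15.8 to 18.4) and 18.8 times in replicate 2 (17.5 to 20.3). Counted from the first base of the 5p arm, both become distinct at 23 bases.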

How the results depend on the processing

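Each of the 10 log2 ratios kept its sign under the 5 alternatives that can move it: TMM, DESeq2 size factors, all reads or both strands as the total, and counts irrespective of strand. Under these, and with no count minimum, at least 100 counts or Bonferroni adjustment, calls were the same except for Mirlet7g with Bonferroni adjustment (adjusted p = 0.490), which left 0 members lower in replicate 1. Of all reads of the library the family held 6.41% ± 0.202 (SD, n = 2), against 13.7% of the sense counts, and with the counts opposite Mirlet7e and Mirlet7f-1 added 14.3%. Without replicate 1, 2 members changed places (Mirlet7b and Mir98), and without replicate 2, 0 did. Leaving out a replicate gave family shares of 13.2% and 14.1%, and 2.16 and 2.28 times for the lowest uncopied over the highest copied level. A precursor stretch in common with another miRNA gene was found for 5 members at 20 bases and for 8 at 18. Within 50 kb there were 8 neighbour pairs in place of 5. No paired analysis was possible because the series has 1 group. With 2 samples, the depth resolves small differences between these libraries and says nothing of other limbs. Each pool has 1 library, so pool and library preparation cannot be told apart. The excluded reads with several alignments were 4.48 and 4.74 times the family's counts.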

Other observations

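The gene Mir7j on chromosome 3, whose mature form is named let-7j, is no member by symbol and was chosen after its values were seen. It had 448 sense counts in replicate 1 and 420 in replicate 2, 105 and 81.5 CPM. Its mature sequence (140028281 to 140028304, plus strand) is shown with that of let-7i, base 8 in capitals.
let-7j: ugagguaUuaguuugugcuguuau
let-7i-5p: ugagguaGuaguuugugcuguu
Over 22 bases they differ by G8U, inside the seed. Mir7j had 1.69 counts per 1000 counts of Mirlet7i in replicate 1 and 1.46 in replicate 2. Where these reads come from was not tested.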
